A study of Mus musculus with 4 samples.

Results

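Genes of 4 groups of sensory and ATP-gated receptors were examined in mouse epidermis that overexpresses either noggin or BMP4: the transient receptor potential (TRP) channels, the purinergic P2X and P2Y receptors, the acid-sensing ion channels (ASIC) and the Piezo channels. Members were taken by gene symbol, a rule that uses no measured value but was set with earlier results of these data known. This gave 42 genes of 19938 named genes on the array: 6 TRPV, 1 TRPA, 8 TRPM, 5 TRPC, 2 Piezo, 5 ASIC, 7 P2X and 8 P2Y genes. They were measured by 47 probe sets, and a gene with several is represented by the probe set of highest mean over the arrays. The noggin animals carried a noggin transgene and the BMP4 animals a BMP4 transgene, each driven by the K14 promoter of basal keratinocytes; no strain, sex or age was given. Epidermis was cut by laser from glabrous hindpaw skin, 8 to 10 strips from each animal, and each array carries the pooled RNA of 3 different animals. There are thus 2 noggin arrays and 2 BMP4 arrays, from 6 animals a line. All animals were transgenic, and a difference is therefore between the lines, given as noggin minus BMP4 in log2 units.

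TRP channels are cation channels opened by heat, cold, chemicals, lipids or cell swelling. P2X receptors are cation channels opened by extracellular ATP, P2Y receptors are G protein-coupled receptors for nucleotides, ASICs open on acid, and Piezo channels open when the membrane is stretched. Keratinocytes express several of these genes, while the best known members belong to sensory axons, whose cell bodies lie in the dorsal root ganglia and outside the captured tissue. BMP4 is a bone morphogenetic protein, and noggin binds and blocks proteins of that family outside the cell.

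The array medians lay between 6.04 and 6.06 log2 units, and the arrays correlated with r between 0.985 and 0.993 over named genes (genes do not count as independent replicates). BMP4 replicate 1 was lowest for 17 of 18 Langerhans cell and macrophage markers, 13 of 15 skeletal muscle markers and 8 of 8 fibroblast markers, and noggin replicate 1 was highest for 14 of 15 skeletal muscle and 5 of 5 smooth muscle markers. Over all named genes, BMP4 replicate 1 was lowest for 25.9% and noggin replicate 1 highest for 27.4%. Noggin replicate 2 was lowest for 32.6% of all named genes. Among the 42 members, noggin replicate 2 was lowest for 17, or 40.5%, and BMP4 replicate 1 for 12. Nog was at 5.92 and 5.99 on the noggin arrays, against 6.13 and 6.04 on the BMP4 arrays, and Bmp4 was at 7.77 and 7.86 on the noggin arrays, against 8.22 and 8.03 on the BMP4 arrays. The sources do not say whether these probe sets read the transgenes, so they do not check the labels. All 13 measured keratinocyte markers lay above the array median on all 4 arrays.

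No member passed the test. Limma called 0 of the 42 members at a Benjamini-Hochberg adjusted p below 0.05 over all probe sets, and 0% of the 35556 probe sets, with a smallest adjusted p of 0.851 among the members. At an unadjusted p below 0.05 limma gave 2 members, P2ry10 and P2ry2, where the share over all named genes was 4.28%. The members' differences were balanced, with 21 higher and 21 lower in noggin and a median of -0.0021, against a median of -0.0064 over all named genes. Their median absolute difference was 0.11 log2 units, against 0.087 for all named genes. With 2 arrays against 2, an exact permutation test of a single gene cannot give a two-sided p below 0.333.

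Most differences were smaller than the gap between arrays of the same group. That was so for 31 of the 42 members, or 73.8%, against 78.1% of all named genes. The groups did not overlap for 15 members, beside 33.6% of all named genes. Both noggin values exceeded both BMP4 values for 8 of them (15.7% of all named genes) and were under them for 7 (17.9%). The groups did not overlap and the means differed by at least 0.3 log2 units for 4 members, P2ry10, P2ry6, Piezo2 and P2ry2, beside 6.52% of all named genes. For 37 of the 42 members, some array decided the size: without it the difference changed sign or shifted over 1.5 times. With 2 arrays a group, any difference smaller than the gap between arrays of the same group meets this rule by construction. The sign changed for 18 members, and for 10 of them it did so without BMP4 replicate 1: Trpv2, Trpm1, Trpm2, Trpm3, Trpm4, Asic3, P2rx5, P2rx6, P2ry12 and P2ry13. The shares over all named genes were not computed for these counts, so they do not set the members apart.

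**Figure D1:**
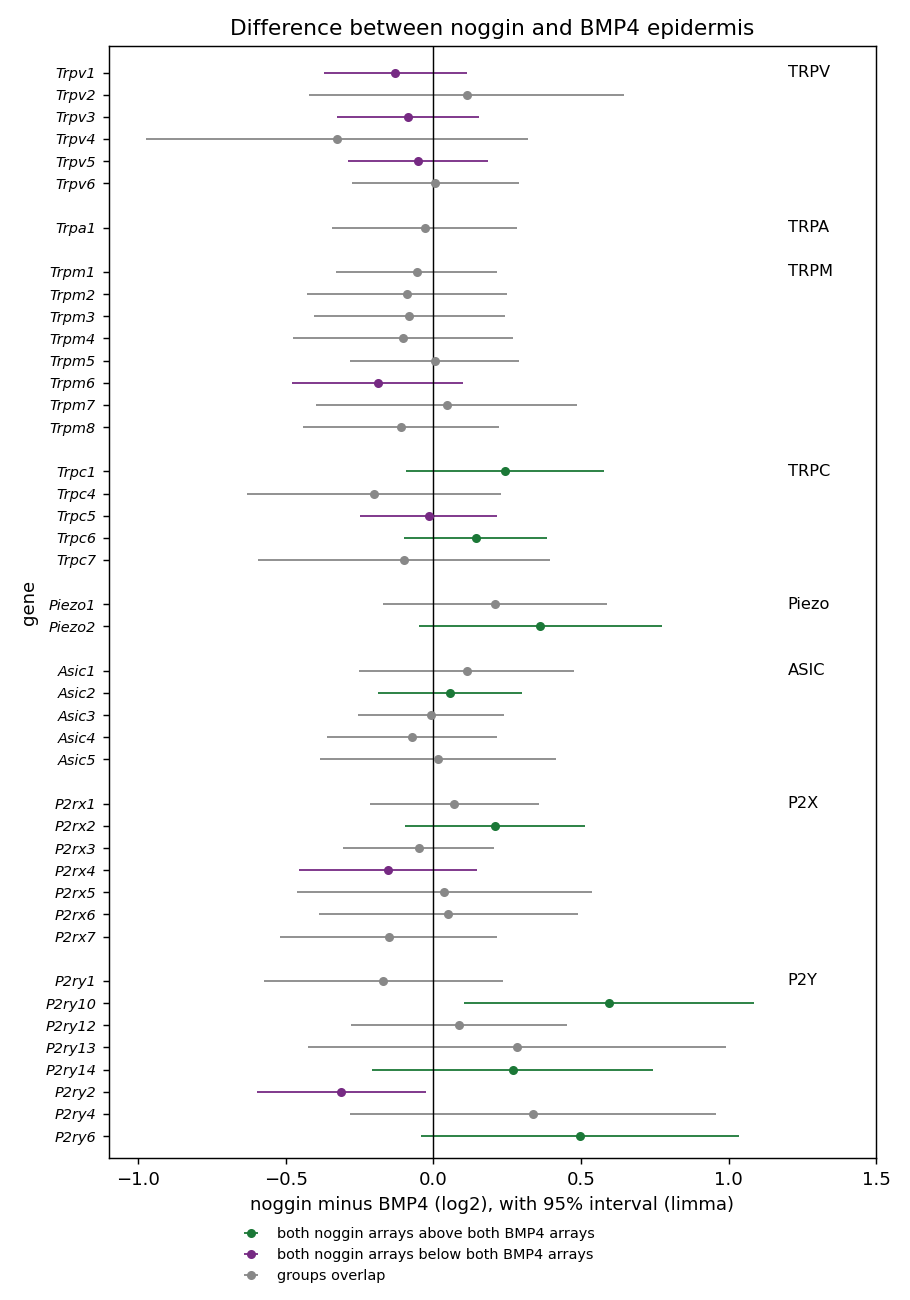
Difference in log2 units (horizontal axis, noggin minus BMP4) of the 42 members by family, with the 95% interval from limma; colours mark genes whose groups do not overlap. Only the intervals of P2ry10 (0.10 to 1.09) and P2ry2 (-0.60 to -0.03) leave out 0, before any adjustment for the number of genes tested.

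Many members lay low on the arrays. Probe sets differ in how strongly they bind, so a value says where a probe set lies among all probe sets and does not rank the genes. Of 15 measured members listed as epidermal, 12 lay above the array median on all 4 arrays, while Trpc4 lay below it on all 4. Of 9 listed as sensory neuron genes 1 lay above it on all 4, Asic1, and of the 18 members in neither list 0 did. Over all 42 members the count was 13, or 31.0%, against 52.2% of all named genes. Trpv1, Trpv5, Trpa1 and Trpc7 lay below the lower quartile, 4.71 to 4.72, on all 4 arrays. Detection above background is unknown, so differences between values that low are uncertain. In such tissue, fewer cells of a type and less RNA per cell cannot be told apart.

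**Figure D2:**
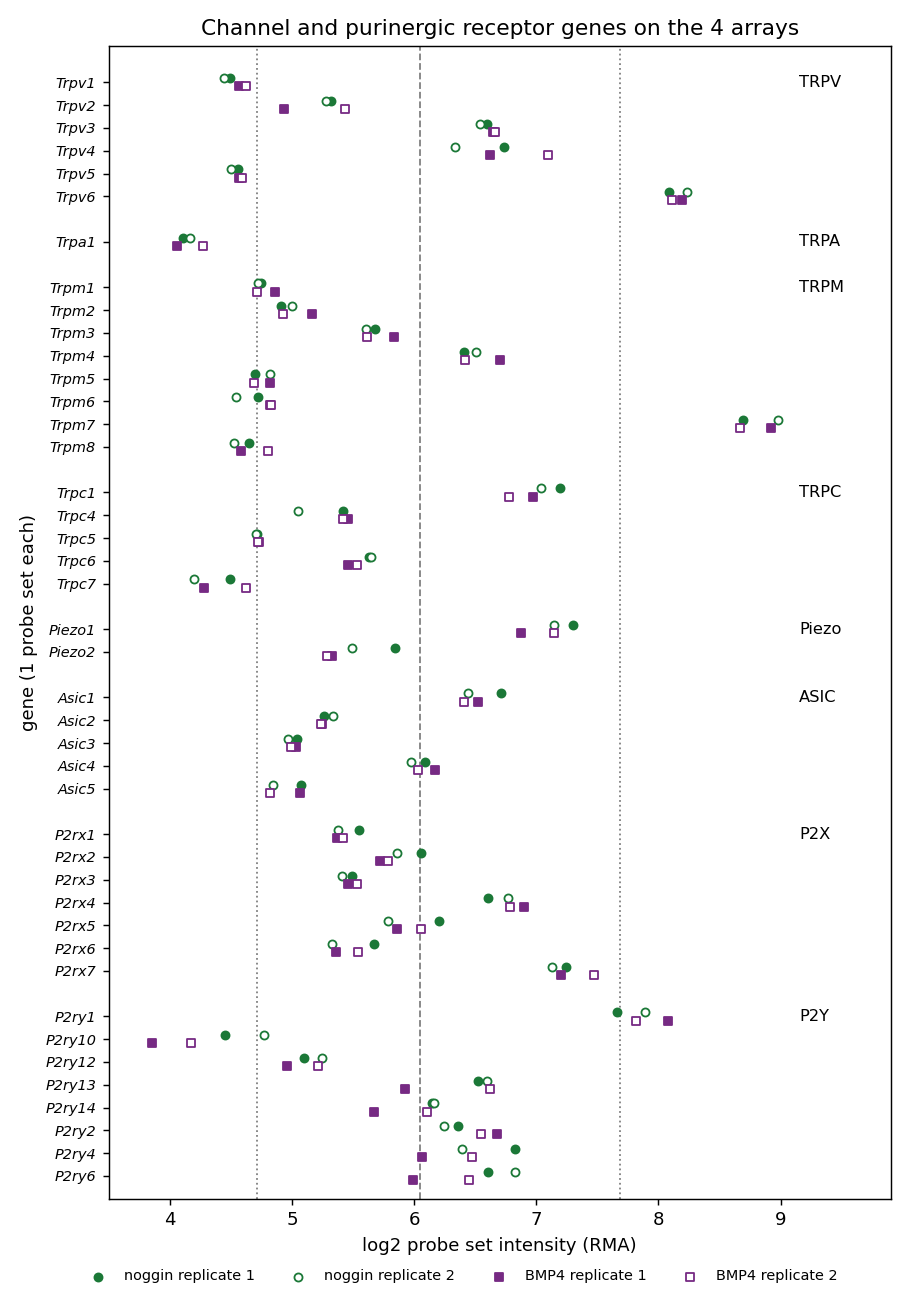
Log2 probe set intensity (horizontal axis) of the 42 members on each of the 4 arrays, by family, with noggin arrays as circles and BMP4 arrays as squares. The dashed line is the mean array median and the dotted lines the mean quartiles; Trpm7 and Trpv6 lie above the upper quartile on all 4 arrays, and Trpa1 lies below the lower quartile on all 4.

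Among the heat and warmth channels of the TRPV family, Trpv3, a warmth-gated channel that is abundant in keratinocytes, was nearly level. It had 6.60 and 6.54 in noggin epidermis, against 6.64 and 6.66 in BMP4 epidermis. The noggin arrays lay just below the BMP4 arrays, by -0.09 log2 units (95% interval -0.33 to 0.15, limma adjusted p = 0.965). Trpv4, a channel opened by warmth and cell swelling, had 6.74 and 6.33 in noggin epidermis, against 6.62 and 7.10 in BMP4 epidermis. Its groups overlapped, and the difference of -0.33 (95% interval -0.97 to 0.32) was the lowest of all members but became -0.09 without BMP4 replicate 2. Trpv6, an epithelial calcium channel, had 8.08 and 8.23 in noggin epidermis, against 8.19 and 8.11 in BMP4 epidermis, a difference of 0.01 (95% interval -0.28 to 0.29).

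Trpv1, the capsaicin receptor of nociceptors, is the gene next to Trpv3 in the GRCm38.p6 gene table. It had 4.49 and 4.44 in noggin epidermis, against 4.57 and 4.62 in BMP4 epidermis, all below the lower quartile. The groups did not overlap, and the difference was -0.13 (95% interval -0.37 to 0.11). Trpa1, the irritant channel of nociceptors, had 4.11 and 4.17 in noggin epidermis, against 4.06 and 4.27 in BMP4 epidermis, with overlapping groups. Trpv5, the neighbour of Trpv6 and a calcium channel of the kidney, differed by -0.05, and Trpv2, a channel of noxious heat and of macrophages, by 0.11 with overlapping groups, or -0.14 without BMP4 replicate 1.

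In the TRPM family, Trpm7, a channel fused to a kinase that carries magnesium, had 8.69 and 8.98 in noggin epidermis, against 8.92 and 8.66 in BMP4 epidermis. Its groups overlapped and the difference was 0.04 (95% interval -0.40 to 0.49). Trpm6, its close relative in magnesium uptake, had 4.72 and 4.54 in noggin epidermis, against 4.82 and 4.83 in BMP4 epidermis. Both noggin values were under both BMP4 values, and the difference was -0.19 (95% interval -0.48 to 0.10, limma adjusted p = 0.939). The value of noggin replicate 2 lay below the lower quartile, and without that array the difference was -0.10. Trpm4, a calcium-activated cation channel, had 6.41 and 6.50 in noggin epidermis, against 6.70 and 6.41 in BMP4 epidermis, and its difference of -0.10 was 0.04 without BMP4 replicate 1.

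The cold and menthol receptor Trpm8 had 4.65 and 4.52 in noggin epidermis, against 4.59 and 4.80 in BMP4 epidermis, near or below the lower quartile. Trpm3, a heat channel of sensory neurons, had 5.68 and 5.60 in noggin epidermis, against 5.83 and 5.61 in BMP4 epidermis. Both genes overlapped between groups. The remaining 3 TRPM genes, Trpm1, known from melanocytes and retina, Trpm2, an oxidant-sensitive channel of immune cells, and Trpm5, the channel of taste cells, differed by -0.06, -0.09 and 0.0041. Without BMP4 replicate 1 the difference was 0.017 for Trpm1 and 0.030 for Trpm2.

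Of the TRPC channels, which open downstream of phospholipase C, Trpc1 had 7.19 and 7.04 in noggin epidermis, against 6.97 and 6.77 in BMP4 epidermis. Both noggin values exceeded both BMP4 values, a 1.18-fold difference of means (0.24 log2 units, 95% interval -0.09 to 0.58, limma adjusted p = 0.932), and leaving out 1 array gave 0.14 to 0.34. Trpc4 had 5.42 and 5.05 in noggin epidermis, against 5.46 and 5.41 in BMP4 epidermis. The low value was noggin replicate 2 alone, and the difference of -0.20 became -0.01 without it. Trpc6, a diacylglycerol-gated channel, differed by 0.14 without overlap, while Trpc5, a cold-sensitive channel of neurons, and Trpc7 differed by -0.02 and -0.10.

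The Piezo genes encode the stretch-gated channels of touch and tissue tension, Piezo1 in many epithelia and vessels and Piezo2 in Merkel cells and touch neurons. Each was read by 3 probe sets that did not move together. For Piezo2 the probe set of highest mean, 10459353, had 5.84 and 5.49 in noggin epidermis, against 5.33 and 5.29 in BMP4 epidermis. Both noggin values exceeded both BMP4 values, by 1.29-fold (0.36 log2 units, 95% interval -0.05 to 0.77, limma adjusted p = 0.893), and without noggin replicate 1 the difference was 0.19. The probe set 10459363 of the same gene had 5.29 and 5.28 in noggin epidermis, against 5.22 and 5.32 in BMP4 epidermis, a difference of 0.01. The probe set 10459335 had 4.81 and 4.69 in noggin epidermis, against 4.64 and 5.15 in BMP4 epidermis, a difference of -0.15. The higher Piezo2 value in noggin was thus seen in 1 of 3 probe sets.

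Merkel cell markers are set beside Piezo2. Of 10 measured, 6 had a higher mean in noggin and the groups did not overlap for 1, with a median difference of 0.0038. Noggin replicate 1, the array with the highest Piezo2 value, was also the highest for 8 of these 10 markers, and as deviations from gene means they had medians of 0.10 and -0.09 on the noggin arrays, against -0.0064 and 0.017 on the BMP4 arrays. Their summed linear intensity was 652 to 741 in noggin epidermis and 691 to 696 in BMP4 epidermis, and Krt20, Rab3c and Sox2 lay below the lower quartile on all 4 arrays. The same array was highest for the muscle markers: as deviations from gene means, 15 skeletal muscle markers had medians of 0.77 and -0.13 on the noggin arrays, against -0.87 and 0.21 on the BMP4 arrays. P2rx2 and P2ry4 were also highest in that array. It was the highest array for 11 of the 42 members, or 26.2%, against 27.4% of all named genes. The part of Merkel cells and muscle in the values of Piezo2, P2rx2 and P2ry4 was not tested.

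For Piezo1 the probe set 10582378 had 7.30 and 7.14 in noggin epidermis, against 6.88 and 7.15 in BMP4 epidermis, a difference of 0.21 that was 0.07 without BMP4 replicate 1. The probe set 10582376 had 6.24 and 6.89 in noggin epidermis, against 6.18 and 8.01 in BMP4 epidermis. It was far higher in BMP4 replicate 2 than in the other arrays, so that the difference was -0.53 with all arrays and 0.39 without that array. The probe set 10582337 had 6.19 and 6.16 in noggin epidermis, against 6.12 and 6.38 in BMP4 epidermis, a difference of -0.07. No probe set of Piezo1 separated the groups.

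**Figure D3:**
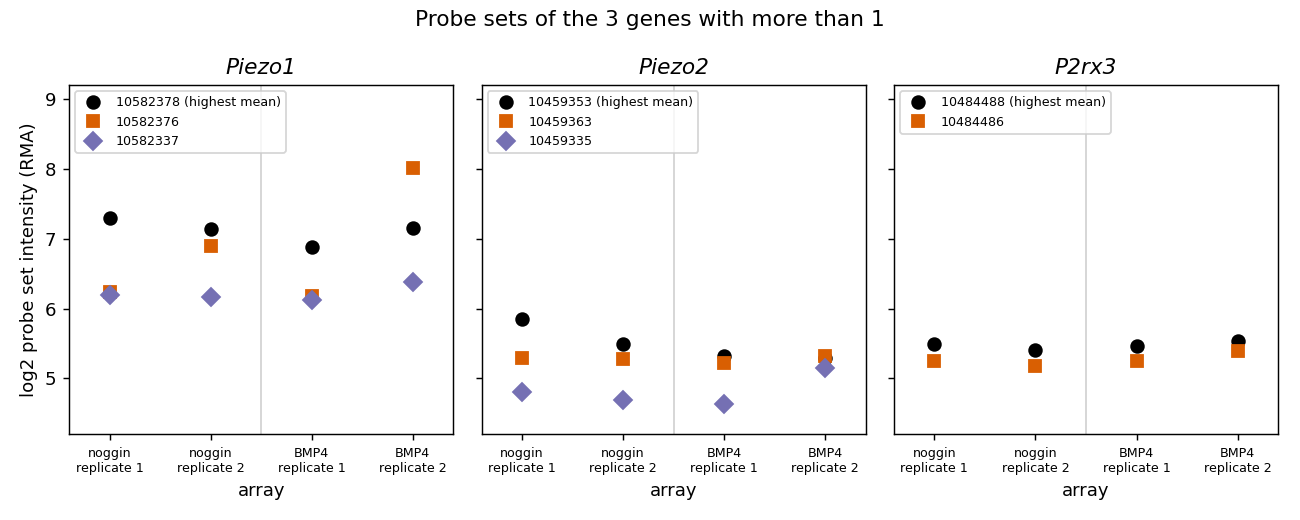
Log2 probe set intensity (vertical axis) on the 4 arrays for each probe set of Piezo1, Piezo2 and P2rx3, with the probe set of highest mean in black. Piezo1 probe set 10582376 reaches 8.01 in BMP4 replicate 2, and Piezo2 probe set 10459353 alone lies higher on both noggin arrays.

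The acid-sensing channels gave differences between -0.07 and 0.11. Asic1, a proton-gated channel of neurons, had 6.71 and 6.44 in noggin epidermis, against 6.52 and 6.41 in BMP4 epidermis. Asic3, the acid sensor of muscle and skin afferents, had 5.04 and 4.97 in noggin epidermis, against 5.03 and 5.0 in BMP4 epidermis. Both overlapped between groups, with 95% intervals from -0.25 to 0.48 for Asic1 and -0.25 to 0.24 for Asic3. Asic2, Asic4 and Asic5 differed by 0.06, -0.07 and 0.01, and for Asic2 both noggin values exceeded both BMP4 values.

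Among the P2X channels, P2rx4 and P2rx7 are neighbouring genes and both are expressed by keratinocytes and macrophages. P2rx7, the receptor for high ATP that drives inflammasome activation, had 7.24 and 7.13 in noggin epidermis, against 7.20 and 7.47 in BMP4 epidermis, with overlapping groups. P2rx4 had 6.61 and 6.77 in noggin epidermis, against 6.90 and 6.79 in BMP4 epidermis. Its noggin arrays lay just below its BMP4 arrays, and both genes differed by -0.15, with 95% intervals from -0.52 to 0.21 for P2rx7 and -0.45 to 0.15 for P2rx4. P2rx5 had 6.20 and 5.79 in noggin epidermis, against 5.86 and 6.06 in BMP4 epidermis, overlapping and with a difference of 0.04.

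P2rx2 and P2rx3 encode the subunits of the ATP receptor of sensory axons. P2rx2 had 6.06 and 5.86 in noggin epidermis, against 5.72 and 5.78 in BMP4 epidermis, without overlap and with a difference of 0.21 (95% interval -0.09 to 0.51, limma adjusted p = 0.934). P2rx3 had 5.49 and 5.41 in noggin epidermis, against 5.46 and 5.54 in BMP4 epidermis, overlapping and with a difference of -0.05. The other P2rx3 probe set, 10484486, had 5.25 and 5.18 in noggin epidermis, against 5.25 and 5.39 in BMP4 epidermis, a difference of -0.11. P2rx1, the ATP channel of platelets and smooth muscle, and P2rx6 differed by 0.07 and 0.05, with overlapping groups, and P2rx6 by -0.04 without BMP4 replicate 1.

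Markers of sensory neurons and axons did not lean to either line as a list. Of 18 measured, 8 averaged higher in noggin, with a list median of -0.02, and Elavl4, Nefl, Snap25 and Tac1 lay below the lower quartile on all 4 arrays. Tubb3, the neuronal beta tubulin, had 9.89 and 9.37 in noggin epidermis, against 10.8 and 10.5 in BMP4 epidermis, and Calcb, a calcitonin gene-related peptide, had 6.66 and 6.71 in noggin epidermis, against 6.32 and 6.37 in BMP4 epidermis. These genes lay on opposite sides, and neither passed in limma, with adjusted p of 0.765 for Tubb3 and 0.814 for Calcb. The summed linear intensity of the list was 1507 to 1831 in noggin epidermis and 2345 to 2671 in BMP4 epidermis, a gap that Tubb3 carried. Without Tubb3 the other 17 genes summed to 846 to 879 in noggin epidermis and 844 to 876 in BMP4 epidermis. The part of axons in the values of P2rx2, P2rx3 and Piezo2 was not tested.

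The P2Y receptors had a median absolute difference of 0.30 log2 units. It was 0.099 without BMP4 replicate 1 but 0.51 without BMP4 replicate 2. Without noggin replicate 1 it was 0.30, and without noggin replicate 2 it was 0.27. P2ry10, a lysophospholipid receptor of lymphocytes, had 4.45 and 4.77 in noggin epidermis, against 3.86 and 4.17 in BMP4 epidermis. Both noggin values exceeded both BMP4 values, at 4.61 ± 0.226 against 4.02 ± 0.225 (SD, n = 2 each), 1.51-fold by limma (0.60 log2 units, 95% interval 0.10 to 1.09, adjusted p = 0.851). Leaving out 1 array gave 0.44 to 0.76. Of its 4 values 3 lay below the lower quartile, where the size of a fold is uncertain.

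P2ry2, the receptor for ATP and UTP through which keratinocytes raise calcium after wounding, was the member nearest to a call on the BMP4 side. It had 6.36 and 6.24 in noggin epidermis, against 6.68 and 6.55 in BMP4 epidermis. Both noggin values were under both BMP4 values, at 6.30 ± 0.080 against 6.61 ± 0.093 (SD, n = 2 each), and BMP4 was 1.24-fold above noggin (-0.31 log2 units, 95% interval -0.60 to -0.03, limma adjusted p = 0.874). The difference ranged from -0.38 to -0.25 on leaving out 1 array. P2ry6, the UDP receptor and the neighbour of P2ry2 on chromosome 7, lay on the other side. It had 6.60 and 6.83 in noggin epidermis, against 5.99 and 6.45 in BMP4 epidermis, without overlap and 1.41-fold higher in noggin (0.50 log2 units, 95% interval -0.04 to 1.03, limma adjusted p = 0.885), but by 0.27 log2 units without BMP4 replicate 1.

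The promoters of P2ry10 and P2ry2 are shown because these were the members below an unadjusted p of 0.05, on opposite sides. They come from RefSeq on GRCm38.p6, 250 bases before to 50 after a transcription start. Capitals mark the SMAD box, CAGAC on either strand, a short sequence bound by SMAD proteins, the transcription factors of BMP and TGF-beta signalling.
P2ry10, chrX:107088242-107088541, plus strand: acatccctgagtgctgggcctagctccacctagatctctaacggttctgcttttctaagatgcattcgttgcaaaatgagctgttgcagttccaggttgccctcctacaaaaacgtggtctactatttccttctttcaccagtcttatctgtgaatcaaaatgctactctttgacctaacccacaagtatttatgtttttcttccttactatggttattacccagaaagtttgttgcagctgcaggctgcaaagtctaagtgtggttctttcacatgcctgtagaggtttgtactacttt
P2ry2, chr7:101012004-101012303, minus strand: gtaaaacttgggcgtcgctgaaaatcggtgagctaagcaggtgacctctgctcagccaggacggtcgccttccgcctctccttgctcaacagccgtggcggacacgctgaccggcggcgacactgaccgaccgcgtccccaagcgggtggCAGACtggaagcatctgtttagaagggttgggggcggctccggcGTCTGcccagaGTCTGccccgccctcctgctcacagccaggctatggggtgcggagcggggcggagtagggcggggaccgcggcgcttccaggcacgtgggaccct
The printed P2ry2 window held 3 SMAD boxes and had a GC content of 67.3%, and the printed P2ry10 window held 0 with 42.3%. Another window of P2ry2, not printed, held 3 SMAD boxes with a GC content of 71%. Another of P2ry10, also not printed, held 0 with 39.3%. A SMAD box was found in 49.6% of all 32851 promoter windows and in 23 of 45 windows of 34 members, or 51.1%. The GC-rich SMAD motif GGCGCC, also bound by BMP-activated SMADs, was in neither printed window, in 4 of the 45 members' windows and in 11.9% of all windows. The motif matches in the P2ry2 and P2ry10 windows describe these letters only.

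The other P2Y genes split by array. P2ry1, an ADP receptor, had 7.66 and 7.89 in noggin epidermis, against 8.08 and 7.81 in BMP4 epidermis, overlapping and with a difference of -0.17 that was -0.04 without BMP4 replicate 1. P2ry4, a UTP receptor, had 6.82 and 6.39 in noggin epidermis, against 6.07 and 6.47 in BMP4 epidermis, overlapping and with a difference of 0.34 that was 0.14 without BMP4 replicate 1. Neither gene separated the groups.

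P2ry12, P2ry13 and P2ry14, which lie close together on chromosome 3, are receptors for ADP and UDP-glucose that are known from platelets, microglia and other immune cells. They were grouped with P2ry6 and P2ry10, also known from immune cells, after their values were seen, so the group has no test. P2ry13 had 6.52 and 6.59 in noggin epidermis, against 5.93 and 6.62 in BMP4 epidermis. P2ry14 had 6.14 and 6.17 in noggin epidermis, against 5.67 and 6.10 in BMP4 epidermis. P2ry12 had 5.09 and 5.25 in noggin epidermis, against 4.96 and 5.21 in BMP4 epidermis. All 5 genes were lowest in BMP4 replicate 1. Without that array the differences were -0.06 for P2ry13, 0.05 for P2ry14, -0.04 for P2ry12, 0.27 for P2ry6 and 0.44 for P2ry10. P2ry4, which like P2ry6 is listed as epidermal, was also lowest there. That array was lowest for 5 of the 5 genes of the immune group and for 1 of the 3 other P2Y genes, beside 25.9% of all named genes. Because the group was formed after its values were seen, these counts do not set it apart.

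Markers of several other cell types were low on the same array. Of 18 measured Langerhans cell and macrophage markers, 16 averaged higher in noggin. As deviations from gene means they had medians of 0.25 and 0.34 on the noggin arrays, against -0.61 and 0.15 on the BMP4 arrays. Their summed linear intensity was 5134 to 5480 in noggin epidermis and 2336 to 4454 in BMP4 epidermis, and 0 of the 18 lay below the lower quartile on all 4 arrays. Cd207, the langerin of Langerhans cells, had 7.21 and 7.28 in noggin epidermis, against 6.48 and 6.86 in BMP4 epidermis. H2-Eb1, a class II antigen presentation gene and the one of smallest p in the list, lay the other way, with 6.37 and 6.43 in noggin epidermis, against 7.31 and 7.38 in BMP4 epidermis (limma adjusted p = 0.601). The median difference of this list was 0.62 with all arrays and 0.27 without BMP4 replicate 1.

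All 12 measured T cell markers averaged higher in noggin, with a median relative to each gene's mean of 0.0064 and 0.22 on the noggin arrays, against -0.27 and -0.07 on the BMP4 arrays. None of the 12 lay below the lower quartile on all 4 arrays. Their summed linear intensity was 1475 to 2007 in noggin epidermis and 1124 to 1497 in BMP4 epidermis. BMP4 replicate 1 was also lowest for 5 of 7 mast cell markers, 5 of 9 endothelium and blood markers, and the fibroblast and skeletal muscle markers counted above. The median deviation on that array was -0.15 for mast cell, -0.17 for endothelium and blood, -0.17 for fibroblast and -0.87 for skeletal muscle markers. The 13 keratinocyte markers had medians of 0.016 and 0.019 on the noggin arrays, against 0.029 and 0.021 on the BMP4 arrays, but single genes lay further apart. Flg2, a filaggrin-like protein of the cornified layer, had 9.69 and 10.5 in noggin epidermis, against 8.50 and 9.76 in BMP4 epidermis, and Dsg3, a desmosomal cadherin, differed by -0.36 without overlap. P2ry2 and P2ry1, unlike the 5 genes above, were highest in BMP4 replicate 1. The part of Langerhans cells, T cells and these other cell types in the P2Y values was not tested.

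**Figure D4:**
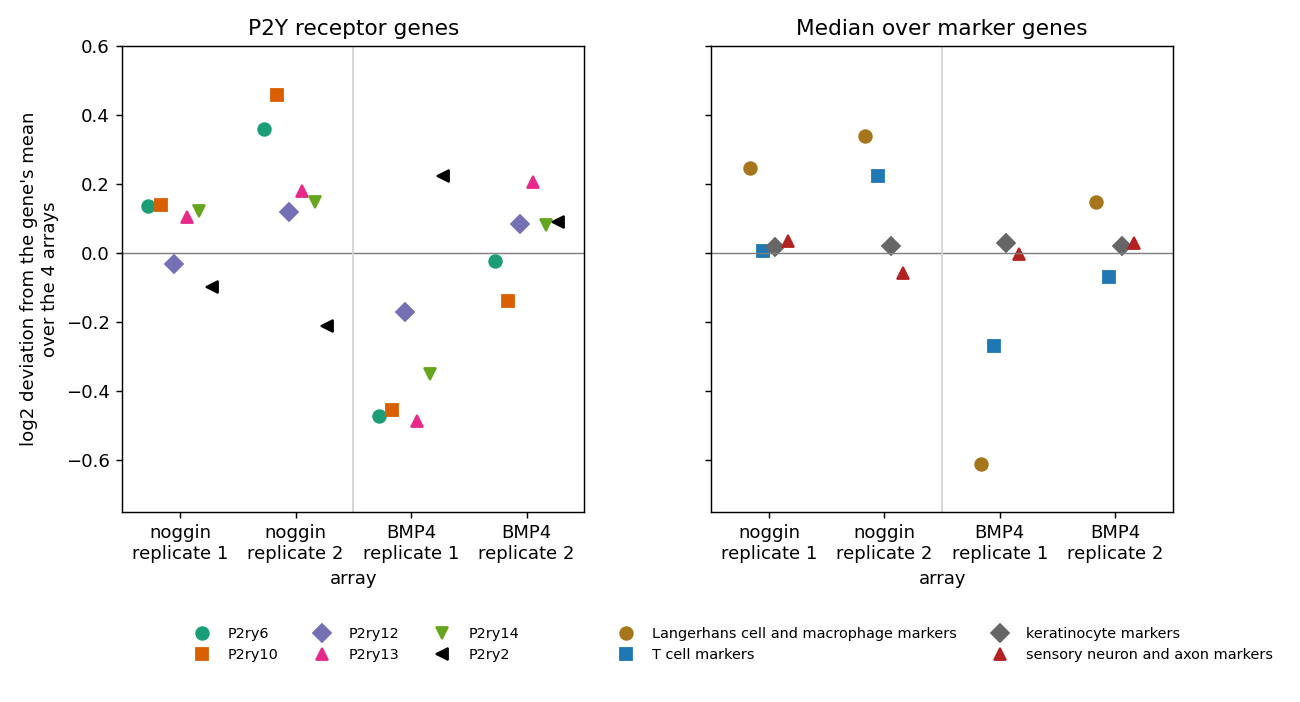
Log2 deviation from each gene's mean over the 4 arrays (vertical axis) for 6 P2Y genes (left) and as the median over marker genes of 4 cell types (right). The 5 P2Y genes known from immune cells are lowest in BMP4 replicate 1, where the Langerhans cell median is -0.61 and the T cell median -0.27, while P2ry2 is highest there. Of the P2Y genes not drawn, P2ry4 is also lowest in that array and P2ry1 is highest.

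Genes that act with these receptors gave no call either. Of 17 measured genes of nucleotide breakdown and ATP release, 8 had a higher mean in noggin. At an unadjusted p below 0.05 limma gave 2, Entpd1 and Entpd4, where the share over all named genes was 4.28%. Entpd1, the ectonucleotidase CD39 that is also found on Langerhans cells, had 6.88 and 7.11 in noggin epidermis, against 6.20 and 6.56 in BMP4 epidermis. Entpd4, a nucleotidase of the Golgi, had 7.75 and 7.50 in noggin epidermis, against 8.27 and 8.12 in BMP4 epidermis. Both separated the groups, on opposite sides, with adjusted p of 0.848 for Entpd1 and 0.768 for Entpd4.

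Of 13 measured genes of calcium stores and store-operated entry, 6 had a higher mean in noggin. Beside 4.28% of all named genes, 1 lay at an unadjusted p below 0.05 in limma. This was Orai2, a pore subunit of store-operated channels, with 5.90 and 5.79 in noggin epidermis, against 6.17 and 6.12 in BMP4 epidermis (adjusted p = 0.867). Limma gave 0 at an unadjusted p below 0.05 and 0 calls among 20 other mechano- and thermosensitive channels and partners, 5 voltage-gated sodium channel genes of sensory neurons, 5 other TRP superfamily genes, 6 partners of Trpv3 and the EGF receptor, and 3 epithelial sodium channel subunits. Their median differences were -0.03, 0.05, -0.04, 0.05 and 0.03 in that order, against -0.0064 over all named genes. The 4 adenosine receptors of the list were not analysed here.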

How the data were processed

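Gene expression was measured on 4 whole-transcript arrays, each hybridised with amplified RNA of 1 pool of animals, per the labels' protocols. The deposited tables hold log2 intensities per probe set, made by the authors with Affymetrix Expression Console and RMA, per the submitters' processing notes, which give no version. RMA brings the arrays to equal distributions and compresses differences of dim probe sets. Scanner files were not used here, and the number of arrays limits the precision.

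The test was limma 3.58.1, run in R 4.3.3 (lmFit, then eBayes) for noggin minus BMP4 over all 35556 probe sets, two-sided, with no covariate. P-values were adjusted by Benjamini-Hochberg, with a threshold of 0.05. Folds are 2 to the power of the log2 difference. Names come from the platform table, and each of the 42 members was found in the GRCm38.p6 table by its Entrez identifier. Probe sets with several symbols were left out.

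The members, gene lists and tests were chosen with earlier results of these data known. Values for every array are given for members listed as epidermal or sensory, those with several probe sets, those without overlap that differ by at least 0.3, and the 3 of smallest p in each direction; P2ry12, P2ry13 and P2ry14 were added after seeing their values. Up to 3 genes of smallest p were eligible from each further list.

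No label links the replicate numbers to a litter or day, so they were not treated as pairs in the main test. Arrays sharing a number had deviations with r = -0.12, which cannot show whether a pairing existed. The code was tested on simulated data. Alternatives were a replicate block, trend and robust priors, leaving out dim probe sets, an adjusted p of 0.1, median centring, quantile and cyclic loess normalization, gene means over probe sets, and leaving out each array. Figures were drawn with matplotlib 3.10.9.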

Additional observations from a re-analysis of the deposited data

How the results depend on the processing

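The count of 0 called members and 0 called probe sets was the same under each alternative that was run, with a smallest adjusted p of 0.606 among the members. The replicate block gave 0 called probe sets, with 1736 at an unadjusted p below 0.05 against 1994 without it, and changed no call; noggin 1 with BMP4 2 and noggin 2 with BMP4 1 as blocks, an alternative added after seeing the data, also gave 0. The number of members whose groups do not overlap, 15, was 27 to 30 when 1 array was left out, since 1 array against 2 overlaps less often by construction. Across the 42 members and 339 recomputed differences, 30 changed sign. The 339 include those of the replicate block, which equal the main differences by construction and could not change sign. By normalization, Asic3 was 0.0071 with quantile normalization again and 0.0058 with cyclic loess, and Piezo1 was -0.13 as the mean of its probe sets. On leaving out 1 array the difference of 18 members changed sign. It ranged from -0.14 to 0.36 for Trpv2, -0.069 to 0.080 for Trpv6, -0.13 to 0.077 for Trpa1, -0.13 to 0.017 for Trpm1, -0.21 to 0.030 for Trpm2, -0.19 to 0.030 for Trpm3, -0.25 to 0.041 for Trpm4, -0.057 to 0.066 for Trpm5, -0.10 to 0.19 for Trpm7 and -0.27 to 0.072 for Trpc7. It ranged from -0.022 to 0.25 for Asic1, -0.048 to 0.031 for Asic3, -0.11 to 0.14 for Asic5, -0.014 to 0.16 for P2rx1, -0.17 to 0.24 for P2rx5, -0.12 to 0.22 for P2rx6, -0.041 to 0.21 for P2ry12 and -0.062 to 0.63 for P2ry13. The cause of these sign changes was not tested. With 2 arrays a group and unknown detection, differences of the sizes seen in these genes cannot be resolved.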
